A study of Mus musculus with 12 samples.

Results

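Genes that mark hepatic stellate cells were followed in 12 mouse livers. They are the 10 genes Lrat, Reln, Adamts13, Hgf, Ecm1, Colec10, Colec11, Pdgfrb, Ngfr and Des, chosen by name from the 57180 genes of the deposited tables, and all 10 were among the 19350 genes with enough reads to be tested. All mice of both genotypes were Csa-/- (the Csa gene is listed as Ercc8), and all were given AAV9-CSA, a viral vector with a human CSA cDNA under the ubiquitous chicken β-actin promoter, into the cerebral ventricles as newborns. The KO livers came from CX mice collected when they had reached a humane endpoint, whose genotype the series' design text and the RNA-seq methods write as Csa-/-;Xpa+/+, although the study describes CX mice as lacking both Csa and Xpa. The Het livers, Csa-/-;Xpa+/-, came from littermates of matched age, and no animal with intact Csa or without the vector was among the samples. Each group (Het females, Het males, KO females, KO males) held 3 mice, and single mice are named as in the labels (KO_M_122 is a KO male). The age of each mouse is not given in the sources used here, and KO and Het mice differed in health as well as in genotype, so that genotype and late disease cannot be told apart.

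Stellate cells lie in the space between hepatocytes and the sinusoidal endothelium. In the healthy liver they store most of the body's vitamin A as retinyl esters in lipid droplets, and they secrete proteins into the sinusoid. When the liver is injured they can lose the droplets and become myofibroblasts, which make α-smooth muscle actin and fibrillar collagen. The 10 genes cover these sides of the cell. Lrat makes the retinyl ester, Reln, Adamts13, Hgf, Ecm1, Colec10 and Colec11 are secreted, Pdgfrb and Ngfr are cell surface receptors, and Des is an intermediate filament.

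The question put to these genes was how their RNA differed between KO and Het livers. Of the 10 genes, 8 were lower in KO livers in the comparison over both sexes (edgeR quasi-likelihood F test, Benjamini-Hochberg adjusted p under 0.05), where 10.2% of all tested genes were called lower and 12.2% higher. None of the 10 was called higher. The median log2 fold change of the 10, KO minus Het, was -1.36, beside 0.018 for all tested genes, and the single values ran from -2.09 for Ngfr to -0.31 for Pdgfrb. Pdgfrb and Des did not pass the test, and the call of Hgf was held by a narrow margin. In 7 of the 10 genes every KO liver lay below every Het liver, as was the case for 4.64% of all tested genes. In a whole liver, fewer stellate cells and less RNA of these genes per cell cannot be told apart.

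**Figure D1:**
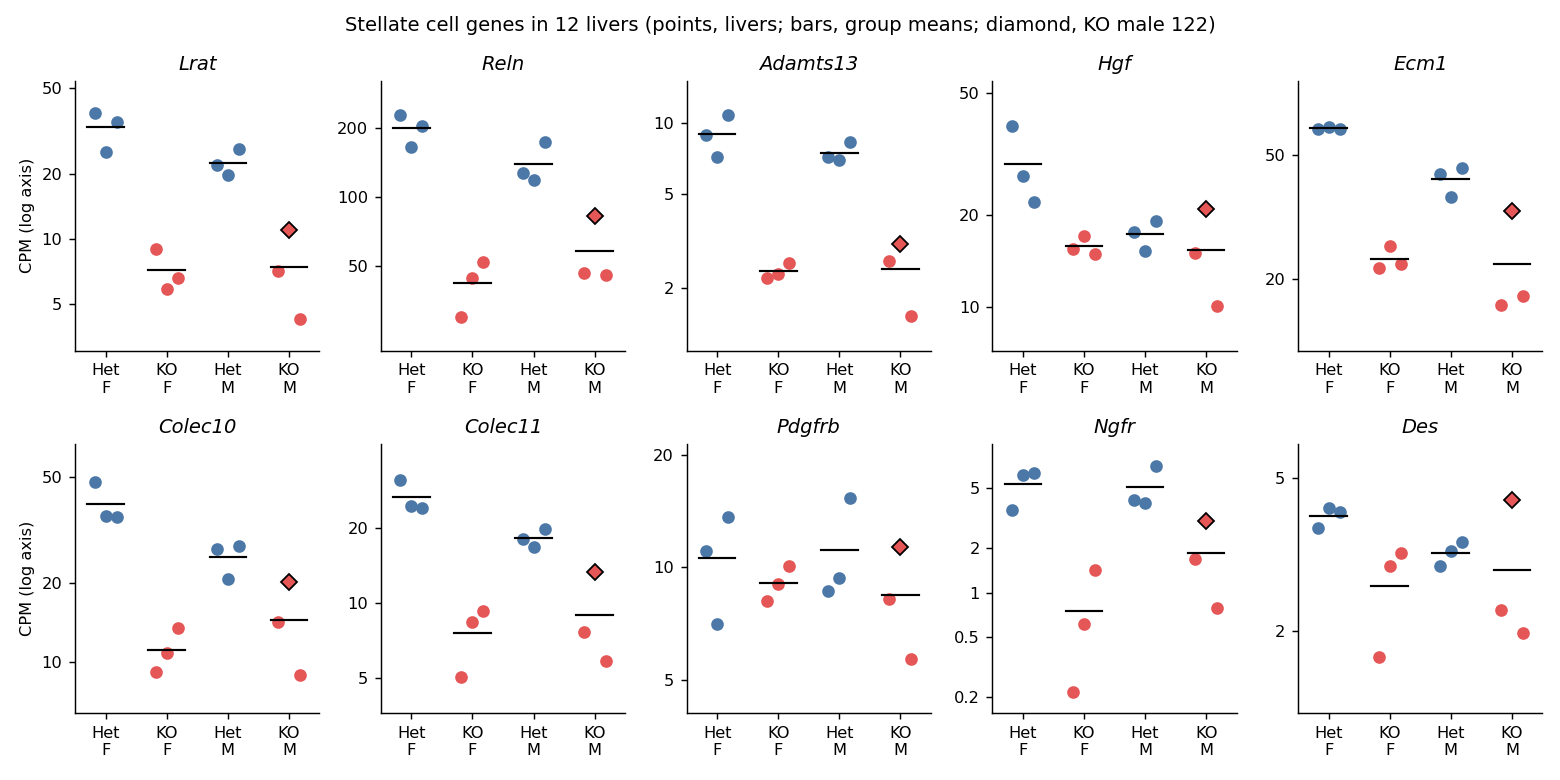
Normalized count (CPM, counts scaled to the TMM-adjusted library size, log axis) of each of the 10 stellate cell genes in each liver. Points are livers, bars are group means of 3 mice, and the diamond is KO_M_122, which was the highest KO liver for all 10 genes; the KO points lie below all Het points for 7 genes, not for Hgf, Pdgfrb and Des.

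Counts assigned to genes ranged from 30044812 to 43634073 per liver. The lowest count of any of the 10 genes in any liver was 7, for Ngfr in KO_F_108. Hepatocyte markers summed to between 74632.6 and 154508 CPM, as a liver sample should show, and skeletal muscle markers to no more than 0.775 CPM. Xpa was low but not absent in KO livers, at 0.992 to 1.83 CPM against 3.10 to 6.34 CPM in Het livers (log2 fold change -1.83 ± 0.16 SE, adjusted p = 4.14e-05). Xpa RNA was thus lower in the livers written as Xpa+/+ than in those written as Xpa+/-. Which Xpa genotype the KO mice carried was not tested. Ercc8 reads were present in every liver and higher in KO, at 14.8 to 33.997 CPM against 5.10 to 8.68 CPM (log2 fold change 1.62 ± 0.17 SE, adjusted p = 0.000156). Whether reads from the human CSA cDNA were counted as Ercc8 was not tested.

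Lrat (lecithin retinol acyltransferase, chr3:82799886-82811288 on the minus strand of GRCm39) esterifies retinol for storage. Its level was 38.5, 25.4 and 34.8 CPM in Het_F_111, Het_F_115 and Het_F_126 and 9.05, 5.85 and 6.62 CPM in KO_F_108, KO_F_112 and KO_F_123. In males it was 22.0, 19.9 and 26.0 CPM in Het_M_119, Het_M_125 and Het_M_137 and 7.16, 10.99 and 4.27 CPM in KO_M_118, KO_M_122 and KO_M_136. The 6 KO livers all lay below the lowest Het liver. Lrat was 3.71-fold lower in KO over both sexes (log2 fold change -1.89 ± 0.21 SE, adjusted p = 0.000238), and the difference was called in females (-2.19 ± 0.30 SE) and in males (-1.59 ± 0.30 SE).

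The promoter of Lrat is shown because Lrat fell while Cyp26a1 and Rarb, both known to be induced by retinoic acid, rose. The retinoid genes as a list went in both directions, and a response to retinoic acid was not tested. It covers the bases from 250 to 16 before the RefSeq start, taken from the RefSeq promoter table of GRCm38.p6 and located in GRCm39 by an exact match at chr3:82811297-82811531, and is written in the direction of transcription with the match to GGGCGG on the opposite strand in capitals.
Lrat: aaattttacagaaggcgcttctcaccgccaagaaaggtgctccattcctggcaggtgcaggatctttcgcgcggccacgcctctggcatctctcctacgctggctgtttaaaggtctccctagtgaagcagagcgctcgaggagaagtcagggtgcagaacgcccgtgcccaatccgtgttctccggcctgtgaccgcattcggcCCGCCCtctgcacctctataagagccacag

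The DR5 retinoic acid response element, a pair of hexamer half-sites 5 bases apart to which the retinoic acid receptor binds together with its partner, was searched on both strands of the 250 bases before each RefSeq start. It was found in 0.0883% of 32851 promoters. None of the 8 stellate cell genes in the table held it (Colec10 and Pdgfrb were not in the table), which at so low a share says little about them. It was held by 2 of 18 matched retinoid genes, Rarb at chr14:5894234-5894250 and Cyp26a1 at chr19:37686224-37686240, in GRCm39. These 2 genes were already known to be induced by retinoic acid, so the matches are no test of a response. Both elements are printed in capitals on the strand of the gene, with 6 flanking bases in lower case.
Rarb: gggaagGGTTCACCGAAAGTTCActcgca
Cyp26a1: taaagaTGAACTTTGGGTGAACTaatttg

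On the opposite strand the Cyp26a1 element reads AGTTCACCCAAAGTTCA. Shorter motifs were searched in the same windows on both strands. AGGTCA, the single half-site of nuclear receptors that can lie inside a DR5 element, was in none of the 8 stellate cell genes and in 4607 of all 32851 promoters. The E-box CAGCTG was in Colec11, Des and Ngfr and in 4271 of all promoters. The GC box GGGCGG was in Des, Ecm1, Lrat, Ngfr and Reln and in 32.7% of all promoters. These matches describe letters only.

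Other retinoid genes went in both directions. Of the 21 tested genes of retinoid handling, 4 were higher (12.2% of all tested genes) and 2 lower (10.2%) in KO over both sexes. Their median log2 fold change was 0.10. The lower count was 1 without Het_F_111, Het_M_125, KO_M_122 or KO_M_136. Cyp26a1, the enzyme that breaks down retinoic acid, ran from 13.1 to 47.1 CPM in Het livers (median 17.6) and from 113 to 343 CPM in KO livers (median 211.0), and rose by 3.38 ± 0.30 SE on the log2 scale (adjusted p = 6.7e-05). The lowest KO liver lay above the highest Het liver. Rarb, a retinoic acid receptor, rose by 0.97 ± 0.12 SE (adjusted p = 0.000373), from a Het median of 5.67 CPM to a KO median of 10.6 CPM, again without overlap. Other called genes, named after their values were seen, were Pnpla2, a lipase of lipid droplets, which was higher (1.26 ± 0.22 SE), and Ttr and Rxra, which were lower (-0.81 and -0.37). Rbp4, which carries retinol in plasma, had a log2 fold change of -0.05 (95% confidence interval -0.30 to 0.20).

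**Figure D2:**
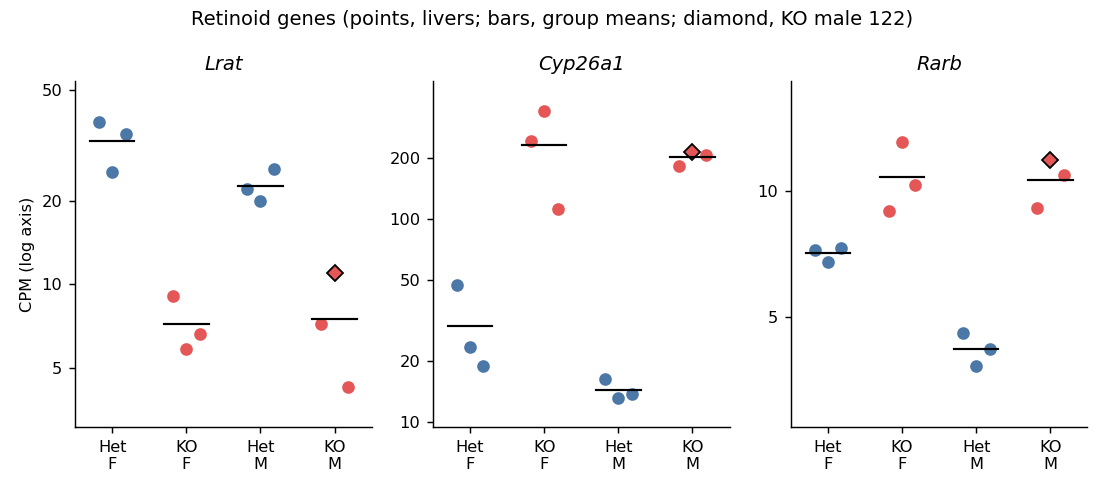
Normalized count (CPM, log axis) of Lrat, Cyp26a1 and Rarb in each liver, with group means of 3 mice as bars and KO_M_122 as a diamond. Lrat lies lower in all 6 KO livers than in any Het liver, and both other genes lie higher in all 6 KO livers than in any Het liver.

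Reln (chr5:22089452-22549700, minus strand) encodes reelin, a large secreted glycoprotein. It had the highest CPM of the 10 genes. In females it was 228, 165 and 205 CPM in Het_F_111, Het_F_115 and Het_F_126 and 30.1, 44.6 and 52.0 CPM in KO_F_108, KO_F_112 and KO_F_123. Het_M_119, Het_M_125 and Het_M_137 had 127, 118.7 and 174 CPM, and KO_M_118, KO_M_122 and KO_M_136 had 46.7, 83.1 and 46.0 CPM. The groups did not overlap in either sex, and KO_M_122 stood above the other KO livers. The log2 fold change was -1.75 ± 0.19 SE over both sexes (3.35-fold lower, adjusted p = 0.000188), with -2.24 ± 0.28 SE in females and -1.25 ± 0.27 SE in males, where the call was lost without Het_M_137, KO_M_118 or KO_M_136 (adjusted p up to 0.0704). In GENCODE M39 the gene spans 3 smaller annotated genes on its own strand and 7 on the other, and how reads were divided among them was not tested. Among 9 tested reelin receptors and adaptors 1 was higher (Itga3, an integrin subunit, log2 fold change 0.63) and 1 lower (Fyn, a Src family kinase, -0.81, a call lost in 7 of the 12 fits that left out a mouse). The receptors themselves did not pass the test. Vldlr had a log2 fold change of -0.71 ± 0.27 SE (adjusted p = 0.0803), and Lrp8 was near the limit of detection, at 0.0334 to 0.341 CPM over all livers.

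Adamts13 (chr2:26863428-26899640, plus strand) encodes the plasma protease that cleaves von Willebrand factor, and the stellate cell is its main source. Het_F_111, Het_F_115 and Het_F_126 had 8.93, 7.17 and 10.8 CPM, and KO_F_108, KO_F_112 and KO_F_123 had 2.20, 2.29 and 2.55 CPM. In males, Het_M_119, Het_M_125 and Het_M_137 had 7.17, 6.96 and 8.28 CPM, and KO_M_118, KO_M_122 and KO_M_136 had 2.60, 3.06 and 1.51 CPM. The highest KO liver lay well below the lowest Het liver. It was 3.40-fold lower in KO over both sexes (log2 fold change -1.76 ± 0.17 SE, adjusted p = 8.93e-05, the smallest of the 10 genes), with -1.91 ± 0.25 SE in females and -1.62 ± 0.24 SE in males.

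Vwf, the substrate of Adamts13, was high in 2 KO females. It was 49.2 CPM in KO_F_108 and 214 CPM in KO_F_112, while KO_F_123 had 9.28 CPM, the KO males 6.35 to 8.79 CPM and the Het livers 8.85 to 12.96 CPM. The log2 fold change in females was 2.92 ± 0.82 SE (adjusted p = 0.0489), a call lost in 5 of the 6 fits that left out a female, and without KO_F_112 it was 1.29. Over both sexes it did not pass the test (1.27 ± 0.55 SE, adjusted p = 0.13). F8, the clotting factor VIII carried by von Willebrand factor, was lower in KO without overlap of the genotypes (log2 fold change -0.995 ± 0.14 SE, adjusted p = 0.000683). Of the 6 tested genes of the list 1 was lower (F8) and 1 higher (Thbs1, a call lost in 10 of the 12 fits that left out a mouse). The list's median was 0.26, and of all tested genes 10.2% were called lower and 12.2% higher.

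Hgf (chr5:16758041-16828178, plus strand) encodes hepatocyte growth factor. Het_F_111, Het_F_115 and Het_F_126 had 39.0, 26.9 and 22.1 CPM, and KO_F_108, KO_F_112 and KO_F_123 had 15.5, 17.03 and 14.96 CPM. Het_M_119, Het_M_125 and Het_M_137 had 17.6, 15.3 and 19.1 CPM, and KO_M_118, KO_M_122 and KO_M_136 had 14.99, 21.0 and 10.1 CPM. The genotypes were apart in females and overlapped in males, where KO_M_122 was the highest of the 6. The difference between genotypes on the log2 scale was -0.53 ± 0.18 SE over both sexes (adjusted p = 0.0493) and -0.89 ± 0.25 SE in females (adjusted p = 0.0432). In males it was -0.17 ± 0.25 SE (adjusted p = 0.724, 95% confidence interval -0.72 to 0.37). The call over both sexes was lost in 20 of 26 alternative settings, with adjusted p from 0.0156 to 0.107.

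Met, the receptor of Hgf, had a log2 fold change of -0.45 ± 0.15 SE (adjusted p = 0.0523). Hgfac, a protease that activates Hgf, had -0.36 ± 0.20 SE (adjusted p = 0.219). Of the 12 tested genes of Hgf activation and its receptor 4 were higher (12.2% of all tested genes) and none lower (10.2%), with a median of 0.16. The count of higher genes was 2 without Het_F_115, Het_M_125, Het_M_137 or KO_F_112, and 1 gene was lower without Het_F_115, Het_M_137 or KO_F_112. The other called gene, Plat (1.04), was named after its value was seen, and those with the smallest p were Plaur (the urokinase receptor, 1.5004), Spint2 (an inhibitor of Hgf-activating proteases, 0.40) and Hpn (hepsin, a protease that activates Hgf, 0.34, a call lost in 7 of the 12 fits that left out a mouse).

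Ecm1 (chr3:95640761-95646943, minus strand) encodes extracellular matrix protein 1, which in the liver keeps latent TGF-β inactive. Het_F_111, Het_F_115 and Het_F_126 stood close together at 60.3, 61.4 and 60.4 CPM, and KO_F_108, KO_F_112 and KO_F_123 at 21.7, 25.4 and 22.3 CPM. In males, Het_M_119, Het_M_125 and Het_M_137 had 43.4, 36.4 and 45.2 CPM, and KO_M_118, KO_M_122 and KO_M_136 had 16.5, 33.0 and 17.6 CPM. The genotypes did not overlap, although KO_M_122 came close to the lowest Het male. Ecm1 was 2.21-fold lower in KO (log2 fold change -1.14 ± 0.16 SE, adjusted p = 0.000642), with -1.39 ± 0.22 SE in females and -0.90 ± 0.22 SE in males. The call in males (adjusted p = 0.03) was lost in 10 of 20 alternative settings.

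Colec10 (chr15:54274170-54329754, plus strand) and Colec11 (chr12:28644168-28673488, minus strand) encode the collectins CL-L1 and CL-K1, soluble lectins that join into one complex and start the lectin pathway of complement with the MASP proteases. Colec10 was 47.9, 35.7 and 35.3 CPM in Het_F_111, Het_F_115 and Het_F_126 and 9.17, 10.8 and 13.4 CPM in KO_F_108, KO_F_112 and KO_F_123. In males it was 26.8, 20.6 and 27.5 CPM in Het_M_119, Het_M_125 and Het_M_137 and 14.2, 20.1 and 8.97 CPM in KO_M_118, KO_M_122 and KO_M_136. The genotypes were far apart in females, and in males KO_M_122 came close to the lowest Het male. The log2 fold change was -1.31 ± 0.18 SE over both sexes (2.47-fold lower, adjusted p = 0.000746) and -1.83 ± 0.26 SE in females. In males it was -0.79 ± 0.26 SE and did not pass the test (adjusted p = 0.0874), but passed it without KO_M_122 (-1.10, adjusted p = 0.0311).

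Colec11 showed the same order of groups. It was 31.3, 24.7 and 24.2 CPM in Het_F_111, Het_F_115 and Het_F_126 and 5.02, 8.36 and 9.30 CPM in KO_F_108, KO_F_112 and KO_F_123. In males it was 18.2, 16.9 and 19.9 CPM in Het_M_119, Het_M_125 and Het_M_137 and 7.63, 13.4 and 5.86 CPM in KO_M_118, KO_M_122 and KO_M_136. The log2 fold change was -1.42 ± 0.20 SE over both sexes (2.68-fold lower, adjusted p = 0.000827), -1.81 ± 0.29 SE in females and -1.03 ± 0.29 SE in males, where the call (adjusted p = 0.049) was lost in 13 of 20 alternative settings.

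The MASP proteases that the collectins work with did not pass the test. Masp1 had a log2 fold change of -0.01 (95% confidence interval -0.23 to 0.22), and Masp2 had -0.27 ± 0.11 SE (adjusted p = 0.103). Of 9 tested genes of the lectin pathway 1 was lower (Mbl1, a mannose-binding lectin made by hepatocytes, -0.88 ± 0.22 SE) and 1 higher (C3, the central complement protein, 0.74 ± 0.14 SE). The list's median was -0.09, and of all tested genes 10.2% were called lower and 12.2% higher.

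Pdgfrb (chr18:61178212-61218133, plus strand), the β receptor for platelet-derived growth factor, drives the proliferation of stellate cells. Het_F_111, Het_F_115 and Het_F_126 had 11.1, 7.07 and 13.7 CPM, and KO_F_108, KO_F_112 and KO_F_123 had 8.12, 9.01 and 10.1 CPM. Het_M_119, Het_M_125 and Het_M_137 had 8.64, 9.37 and 15.3 CPM, and KO_M_118, KO_M_122 and KO_M_136 had 8.24, 11.3 and 5.69 CPM. The genotypes overlapped in both sexes. The log2 fold change was -0.31 ± 0.21 SE (adjusted p = 0.312), and its 95% confidence interval from -0.77 to 0.15 does not reach the values of Lrat, Reln or Adamts13. Of the 5 genes for ligands and the α receptor, Pdgfa was higher (0.92 ± 0.17 SE) and Pdgfd lower (-0.79 ± 0.20 SE). Pdgfb, Pdgfc and Pdgfra had values of 0.02, 0.63 and 0.11 and did not pass the test.

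Ngfr (chr11:95459638-95478561, minus strand), the low-affinity neurotrophin receptor p75, had the largest and least precise difference. Het_F_111, Het_F_115 and Het_F_126 had 3.55, 6.17 and 6.37 CPM, and KO_F_108, KO_F_112 and KO_F_123 had 0.217, 0.619 and 1.42 CPM, from 7, 20 and 53 counts. In males, Het_M_119, Het_M_125 and Het_M_137 had 4.20, 3.97 and 7.10 CPM, and KO_M_118, KO_M_122 and KO_M_136 had 1.68, 3.03 and 0.783 CPM. No KO liver reached the lowest Het liver, but the KO livers were far from each other, KO_M_122 standing above and KO_F_108 below the rest. It was 4.25-fold lower over both sexes (log2 fold change -2.09 ± 0.39 SE, adjusted p = 0.00421) and -2.73 ± 0.57 SE in females (adjusted p = 0.0164), a call lost without KO_F_112 and when only the 6 females were fitted. In males it was -1.45 ± 0.54 SE (adjusted p = 0.129).

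The neurotrophins that bind this receptor did not all go the same way. Ntf3 (neurotrophin-3) ran from 0.153 to 0.634 CPM in Het livers and from 1.64 to 2.92 CPM in KO livers and rose by 2.47 ± 0.25 SE on the log2 scale (adjusted p = 0.000121). Bdnf was lower (-1.46 ± 0.31 SE, adjusted p = 0.00722), at no more than 3.03 CPM in any liver. The co-receptor Sort1 had -0.72 ± 0.36 SE (adjusted p = 0.183). Of 9 tested genes of this list 1 was higher (12.2% of all tested genes) and 1 lower (10.2%), with a median of -0.58. The count of lower genes was 2 without Het_F_115, Het_M_125 or KO_F_123.

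Des (chr1:75320511-75345223, plus strand) encodes desmin, the intermediate filament by which stellate cells are often stained, and is also made by smooth muscle. Het_F_111, Het_F_115 and Het_F_126 had 3.69, 4.16 and 4.06 CPM, and KO_F_108, KO_F_112 and KO_F_123 had 1.70, 2.94 and 3.19 CPM. Het_M_119, Het_M_125 and Het_M_137 had 2.94, 3.22 and 3.39 CPM, and KO_M_118, KO_M_122 and KO_M_136 had 2.26, 4.37 and 1.97 CPM. The females did not overlap, but KO_M_122 was the highest of all 12 livers. On the log2 scale the fold change was -0.37 ± 0.21 SE (adjusted p = 0.231), and without KO_M_122 it was -0.58 and passed the test (adjusted p = 0.0375). Of 7 tested partners of desmin 1 was lower (Ctnnb1, -0.32) and 1 higher (Plec, the cytoskeletal linker plectin, 0.35, a call lost in 9 of the 12 fits that left out a mouse). Of all tested genes 10.2% were called lower and 12.2% higher. The count of lower partners was 2 without KO_F_112, KO_F_123 or KO_M_122. Vim had a value of 0.17 (95% confidence interval -0.23 to 0.57).

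The second question was whether the difference depended on sex. In females 8 of the 10 genes were lower in KO, where 5.1% of all tested genes were called lower and 5.94% higher, and the median log2 fold change was -1.82. In males 5 were lower, where 2.98% of all tested genes were called lower and 4.47% higher, and the median was -0.96. KO females lay wholly below Het females in 9 genes (14.7% of all tested genes) and KO males wholly below Het males in 7 (15.4%). The difference was larger in size in females than in males for all of the genes but Pdgfrb. KO_M_122, the highest KO liver for all 10 genes, is among the KO males. Leaving out the highest KO male lowers the mean of the KO males by construction. Without KO_M_122 the male values were -1.83 for Adamts13, -1.97 for Lrat, -1.29 for Ecm1 and -0.57 for Des. The female values of these, with every female kept, were -1.91, -2.19, -1.39 and -0.59. Reln (-1.59 beside -2.24) and Colec10 (-1.10 beside -1.83) stayed further apart, as did Hgf, Colec11 and Ngfr. Without KO_F_123 the female values of Reln and Colec10 were -2.42 and -1.99. The part of single mice in the gap between the sexes was not tested. The interaction itself passed the test for none of the 10 genes, as for 0.0465% of all tested genes called in either direction. At an unadjusted p under 0.05 it had 2, Colec10 (1.04 ± 0.36 SE, adjusted p = 0.458) and Reln (0.98 ± 0.37 SE, adjusted p = 0.48), and DESeq2 called none either. At this size a difference between the sexes in the effect of genotype was not detected.

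**Figure D3:**
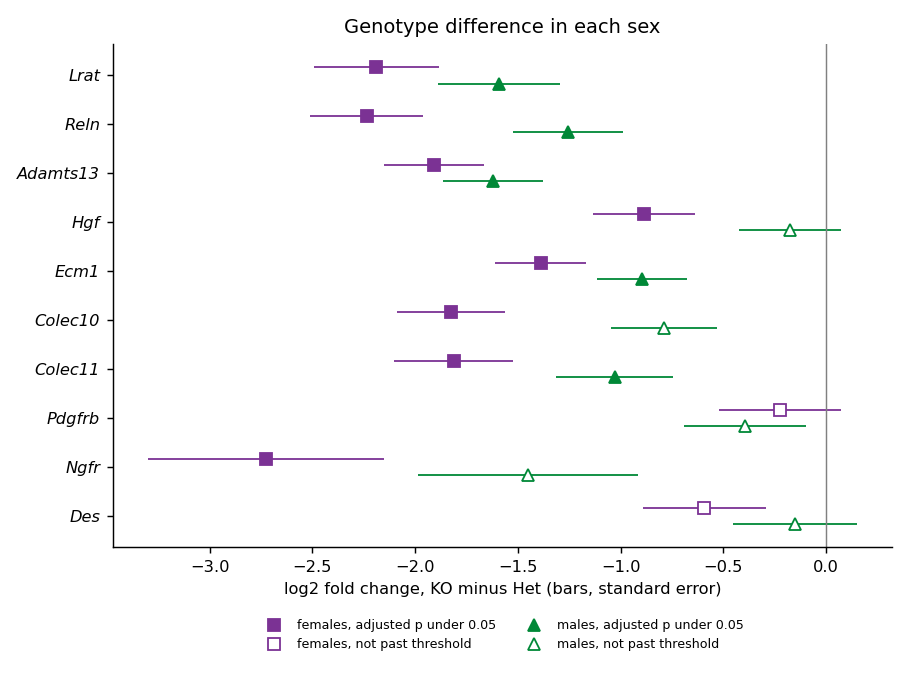
Log2 fold change, KO minus Het, of each of the 10 genes in females (squares) and males (triangles), with standard errors as bars and filled symbols for an adjusted p under 0.05. The female value lies further below 0 than the male value for all genes but Pdgfrb, with 8 filled symbols in females and 5 in males. The male values include KO_M_122, the highest KO liver for all 10 genes.

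Averaged over genotypes, males and females differed in none of the 10 genes past the threshold, where 1.02% of all tested genes were called in either direction, and 1 gene, Hgf, had an unadjusted p under 0.05 (log2 fold change -0.40, males minus females, adjusted p = 0.34). DESeq2 called none either. The sexes were then compared within each genotype, a contrast added after the values were seen. In Het livers the median of the 10 genes was -0.52, males minus females, and 9 of the 10 values were below 0. None passed the adjusted threshold, where 0.92% of all tested genes were called in either direction. At an unadjusted p under 0.05 there were 3, Hgf (-0.76 ± 0.25 SE, adjusted p = 0.249), Colec10 (-0.66 ± 0.26 SE, adjusted p = 0.337) and Ecm1 (-0.54 ± 0.22 SE, adjusted p = 0.374). Het males lay wholly below Het females in 5 genes (Hgf, Ecm1, Colec10, Colec11 and Des), as for 9.16% of all tested genes. In KO livers the median of the same contrast was 0.09, none passed either threshold, where 0.0517% of all tested genes were called, and in none of the 10 genes did KO males lie wholly below KO females (8.53% of all tested genes).

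Some livers were high or low for most of the 10 genes, which were read from the same libraries. KO_M_122 was the highest of the 6 KO livers for all 10 genes, KO_M_136 the lowest for 5 and KO_F_108 the lowest for 4. Among Het livers, Het_F_111 was the highest for 5 genes and Het_M_125 the lowest for 7. Summed over the 10 genes the level was 363 to 473 CPM in Het females, 251 to 345 CPM in Het males, 103 to 135.8 CPM in KO females, and 121.9, 203 and 103 CPM in KO_M_118, KO_M_122 and KO_M_136. Without KO_M_122 the genes called lower numbered 9 in place of 8 over both sexes and 6 in place of 5 in males.

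Markers of other liver cells moved with genotype as well. Of the 10 sinusoidal endothelial markers 6 were lower in KO (10.2% of all tested genes) and none higher (12.2%), with a median log2 fold change of -0.66. None of the 10 was at 0. In females alone 3 were called lower (5.1% of all tested genes, median -0.70), and in males 0 (2.98%, median -0.43). The 10 markers summed to 398 to 507 CPM in Het females, 272 to 377 CPM in Het males, 240.0 to 325 CPM in KO females and 200.3 to 342 CPM in KO males. KO_M_122 was again the highest KO liver, inside the Het range. Those with the smallest p were Fcgr2b (-1.23 ± 0.20 SE), Kdr, the VEGF receptor (-0.99 ± 0.18 SE), and Clec4g (-0.83 ± 0.17 SE). Of the 10 Kupffer cell markers 6 were higher (12.2% of all tested genes), none lower (10.2%) and 4 not called (median 0.77). The sums were 324 to 421 CPM in Het females, 159 to 213 CPM in Het males, 417 to 654 CPM in KO females and 223 to 631 CPM in KO males, KO_M_122 being the highest of these. In females alone 0 Kupffer cell markers were called higher (5.94% of all tested genes, median 0.38), and in males 4 (4.47%, median 1.12). Leading this list were Marco, a scavenger receptor (2.98 ± 0.57 SE), Vsig4 (0.87 ± 0.20 SE) and C1qb (0.87 ± 0.21 SE). Timd4 of the same list, named after its values were seen, did not rise, with a mean of 4.13 CPM in Het and 3.53 CPM in KO livers. Without KO_M_122 the endothelial markers called lower numbered 8 and the Kupffer cell markers called higher 4. The part of these markers in the difference of the stellate cell genes was not tested.

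**Figure D4:**
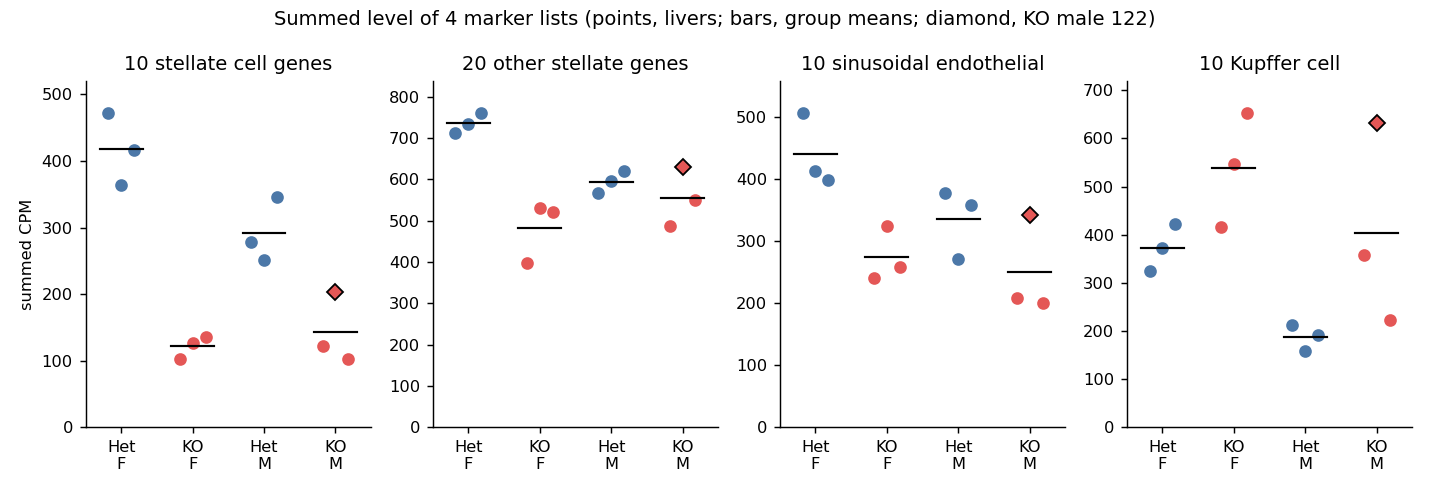
Summed normalized count (CPM, linear axis from 0) of the 10 stellate cell genes, 20 other stellate cell genes, 10 sinusoidal endothelial markers and 10 Kupffer cell markers in each liver, with group means of 3 mice as bars. For the 10 stellate cell genes all KO livers lie below all Het livers, while the Kupffer cell markers lie higher in KO livers within each sex with a narrow gap or overlap.

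Other genes of stellate cells, not among the 10, were looked at as a list of 20. Of these 6 were lower (10.2% of all tested genes) and 1 higher (12.2%) in KO, and the median log2 fold change was -0.44. The lower genes with the smallest p were Angptl6, a secreted angiopoietin-like protein (-1.53 ± 0.18 SE, adjusted p = 0.000259), and Bmp5, a growth factor of the BMP family (-0.95 ± 0.14 SE, adjusted p = 0.00105). Lhx2 and Hand2, transcription factors of the quiescent stellate cell, gave values of -0.31 (95% confidence interval -0.75 to 0.13) and 0.02 (-0.40 to 0.45) and did not pass the test. Hand2 was picked out after its value was seen. The list's sum was 712 to 761 CPM in Het females, 566 to 621 CPM in Het males, 399 to 531 CPM in KO females and 487 to 629 CPM in KO males, so that the genotypes were apart in females and overlapped in males. Without KO_M_122 the count of lower genes was 9, and without Het_F_111 it was 4.

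Genes of the myofibroblast and its matrix were mostly not called. Of 25 tested genes 2 were higher (12.2% of all tested genes) and none lower (10.2%), with a median of -0.15. The 2 were Ccn2, the connective tissue growth factor (1.16 ± 0.33 SE, adjusted p = 0.0268), and Thbs1, thrombospondin-1 (0.99 ± 0.32 SE, adjusted p = 0.0459), and these calls were lost in 6 (Ccn2) and 10 (Thbs1) of the 12 fits that left out a mouse. Leaving out Het_F_126, Het_M_125, Het_M_137, KO_F_108 or KO_M_122 left none of the 25 higher. Without KO_M_122 the calls turned, with 3 lower and 0 higher, and 2 were lower without KO_F_123 and 1 without KO_F_112. Acta2, the α-smooth muscle actin that marks the activated cell, had a log2 fold change of -0.15 (95% confidence interval -0.95 to 0.64). The values of the collagen genes were 0.28 for Col1a1 (-0.56 to 1.12), -0.17 for Col1a2 (-0.78 to 0.44) and -1.09 for Col3a1 (-2.21 to 0.04). Timp1, an inhibitor of matrix proteases, had 0.83 (-0.11 to 1.76) at no more than 0.262 CPM. None of these passed the test, and the wide intervals leave room for a change of either sign in Acta2, Col1a1 and Col1a2.

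Markers of the other cell types that hold some of the same genes gave smaller counts. The shares of all tested genes to set beside these counts are 10.2% called lower and 12.2% called higher. Of 8 tested markers of portal fibroblasts and smooth muscle 2 were lower (Myh11, and Mfap4, a call lost without Het_M_137, KO_F_108, KO_F_112 or KO_M_136) and 1 higher (Entpd2), with a median of -0.35 and sums of 11.8 to 16.5 CPM in Het livers and 8.96 to 15.9 CPM in KO livers. None of 7 cholangiocyte markers, of 6 mesothelial markers or of the 1 tested skeletal muscle marker was called. In Schwann cells, which also make Ngfr, 1 of 5 tested markers was higher, a call lost in 9 of the 12 fits that left out a mouse, and the markers summed to 4.004 to 6.94 CPM in Het livers and 4.62 to 6.59 CPM in KO livers. Of 9 leukocyte markers 2 were higher, Itgam, which held in all 12 fits that left out a mouse, and S100a8 (adjusted p = 0.0299), which was lost in 7 of them and left a count of 1. Of 10 hepatocyte markers 2 were lower (Ttr and Cyp2e1) and none higher, with up to 2 higher without a mouse (2 without Het_M_119, and 1 without Het_F_111, KO_F_108 or KO_F_123).

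**Figure D5:**
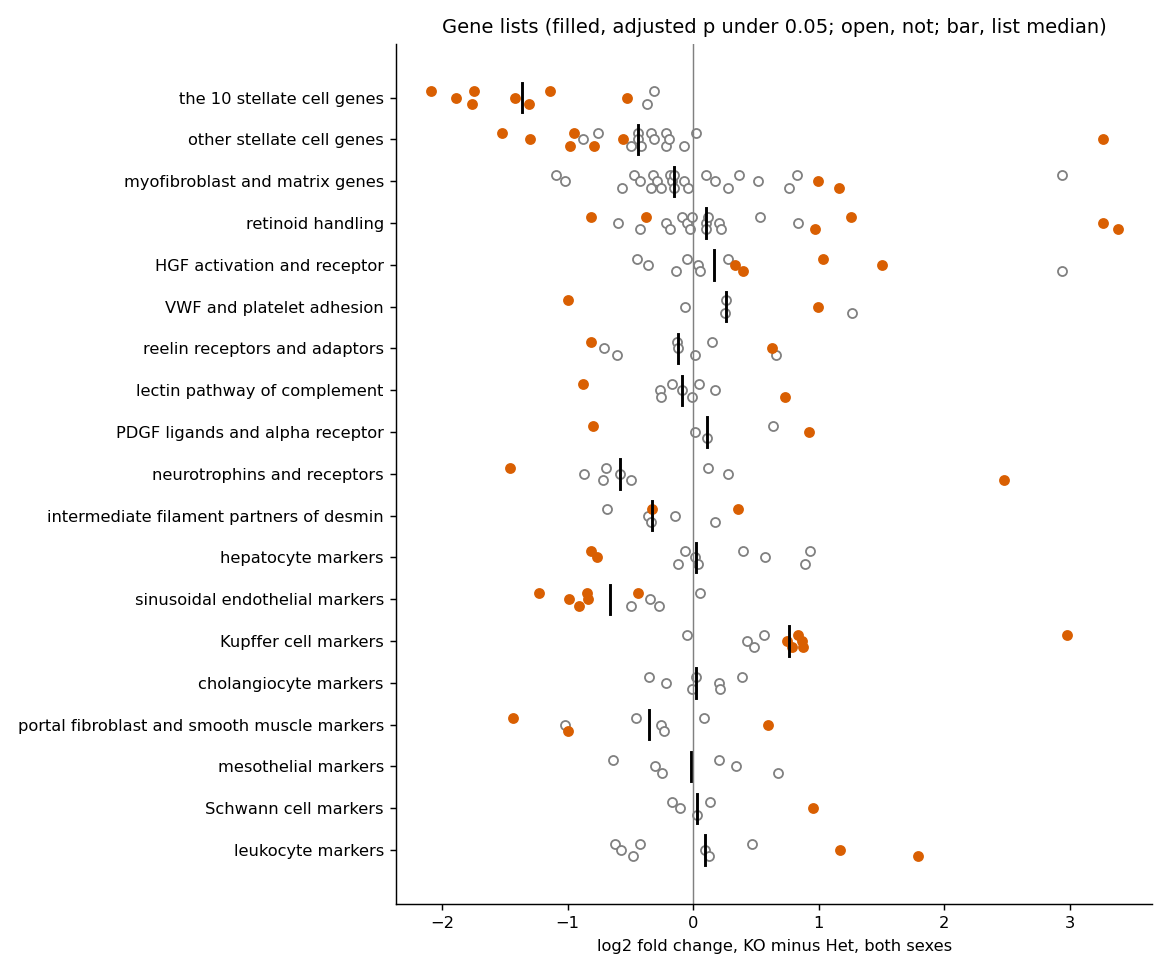
Log2 fold change, KO minus Het over both sexes, of every tested gene of each list, with filled points for an adjusted p under 0.05, open points otherwise and a bar at the median of the list. The 10 stellate cell genes have a median of -1.36 and no point above 0, the sinusoidal endothelial markers a median of -0.66, the Kupffer cell markers 0.77, and the myofibroblast and matrix genes -0.15.

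To set the genes beside each other, the deposited TPM values, which are scaled to gene length, were used. A pair of small RNAs, Rn7s1 and Rn7s2, took 44.5% to 55.7% of the TPM of each liver, so these values serve for order only. In Het females the order of mean TPM was Ecm1 (42.3 ± 1.08 SD), Colec11 (17.001 ± 2.45 SD), Reln (16.1 ± 2.50 SD), Hgf (8.90 ± 2.79 SD), Colec10 (6.90 ± 1.29 SD), Lrat (4.87 ± 0.995 SD), Adamts13 (2.08 ± 0.42 SD), Pdgfrb (1.55 ± 0.47 SD), Ngfr (1.25 ± 0.36 SD) and Des (1.18 ± 0.11 SD), each over 3 mice. Colec11 and Reln, Hgf and Colec10, Adamts13 and Pdgfrb, and Pdgfrb, Ngfr and Des were no further apart than their spread. In KO females Ecm1 was still the highest (16.95 ± 0.97 SD) and Ngfr the lowest (0.165 ± 0.137 SD). In KO females Hgf (4.59 ± 0.33 SD) stood between Colec11 (4.66 ± 1.11 SD) and Reln (4.19 ± 1.25 SD) within their spread, and Pdgfrb (1.27 ± 0.14 SD) stood level with Lrat (1.03 ± 0.34 SD) and above Adamts13 (0.519 ± 0.054 SD).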

How the data were processed

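Total RNA from frozen livers, depleted of ribosomal RNA, was sequenced with paired stranded reads. The authors ran nf-core/rnaseq with STAR 2.7.9a on GRCm39 and GENCODE M34 and quantified genes with Salmon 1.10.1. The estimated counts per gene that the authors deposited (12.0% of values not whole) were rounded and used for every test, and the deposited TPM only for order between genes and as an alternative. Samples were grouped by label into 4 groups of 3. Genes with at least 5 reads, scaled to the median library, in at least 3 livers were kept, scaled by TMM (factors 0.885 to 1.06) and fitted in edgeR 4.0.16 (R 4.3.3) with a mean per group, robust quasi-likelihood F tests, a prior count of 2 and Benjamini-Hochberg adjustment over all tested genes, with calls at 0.05. The fit was tested on simulated counts, drawn independently for each liver with the same spread for every gene. This setting is simpler than these livers, so the simulation checks the working of the fit only. Standard errors come from the F statistic. Intervals are 95%. Livers of 1 group differed far beyond counting noise, and every number names a separate mouse.

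The 10 genes, the gene lists and the tests were chosen with earlier results of these data known. Named outside the 10 were Xpa, Ercc8, a set of partners (receptors, ligands and substrates of the 10 genes, and retinoid and matrix genes) and, of each list, at most the 3 called genes with the smallest p. Alternatives were the authors' length-scaled and scaled estimated counts, other filters, scalings and models, DESeq2 1.42.0, limma 3.58.1 on log2(TPM + 1) and log2(TPM + 0.1), and leaving out each mouse. Coordinates are from GENCODE M39 on GRCm39, matched by gene identifier. Results for some genes of the lists are not reported here, although they count in the lists.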

Additional observations from a re-analysis of the deposited data

Results flagged for a closer look

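In 124 sets of 6 livers (each named gene in each genotype), 10 held a liver whose gap to the next was large for the range of the set by Dixon's test. Chance alone flags about 1 in 20 of all sets looked at, so that some of the 10 flagged sets may be chance. None of the flagged sets was for any of the 10 stellate cell genes. Vwf was 214 CPM in KO_F_112, where the next KO liver had 49.2 CPM. KO_M_122 stood above the other KO livers in 3 sinusoidal endothelial markers, Fcgr2b (22.2 CPM), Kdr (48.6 CPM) and Clec4g (22.9 CPM), and it was also the highest KO liver for all 10 stellate cell genes. Het_F_111 had 47.1 CPM of Cyp26a1, the highest Het liver and below every KO liver. The remaining 5 were also the highest of their genotype. Het_F_115 had 3.01 CPM of Acta2 and 5.23 CPM of Thbs1. KO_M_118 had 1.29 CPM of Bdnf, and KO_F_108 had 320.3 CPM of Plec and 1.24 CPM of S100a8.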

How the results depend on the processing

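Over 28 alternative fits the 10 genes gave 657 alternative values for the genotype comparisons, of which 594 kept their direction and their side of the threshold, 58 kept the direction and lost the call, 3 gained a call and 2 changed sign. Without KO_M_136 the log2 fold change in males was 0.048 for Hgf and 0.048 for Des, and leaving out each male in turn gave -0.46 to 0.048 and -0.57 to 0.048. The number of the 10 genes called in males was 3 with the scaled counts and 3 with only the 6 males fitted, beside 5, and ran from 2 (without Het_M_137, KO_M_118 or KO_M_136) to 6 without 1 male. For the sex comparison it ran from 0 to 1, with Ecm1 called without KO_M_122. Calls over both sexes for Lrat, Reln, Adamts13, Ecm1, Colec10 and Colec11 held in all 26 alternatives, and that of Ngfr in 25, since a filter of 10 reads in every liver removed it.

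Over all genes, 2135 were called in females but 486 with only the females fitted and 844 to 1261 without Het_F_111, Het_F_115 or Het_F_126 or KO_F_108 or KO_F_112. In males 1441 were called, 2260 with DESeq2 and 539 to 785 without a male other than KO_M_122. The interaction called 9 genes, 162 with DESeq2, 48 and 30 with limma on TPM, 14 to 24 with 5 other settings of edgeR, 90 without KO_F_123 and 4 to 5 without Het_F_111, Het_F_115, Het_M_137, KO_F_112, KO_M_122 or KO_M_136. The sex comparison called 197, 725 with DESeq2, 130 without an interaction term, 82 fewer with the filter of 10 reads in every liver and 113 to 340 without a mouse (all but Het_F_111, KO_F_108, KO_F_112, KO_F_123 and KO_M_122 moved it by over 1.5 times). The cause of these differences was not tested. No scaling moved the median of all genes past 0.028. Fits that leave a group with 2 mice pool the spread over groups. No paired analysis was possible because the litter and age match of each mouse are not given in the sources used here. The depth of 30044812 to 43634073 counts limits Ngfr, at 7 counts in KO_F_108, and Lrp8 and Timp1, more than the other genes.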
